A study of Mus musculus with 4 samples.

Results

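A set of 10 genes of the cytosolic HSP90 system, the mitochondrial chaperonin, a small heat shock protein and the heat shock transcription factor was followed in mouse liver: *Hsp90aa1*, *Hsp90ab1*, *Stip1*, *Ahsa1*, *Fkbp4*, *Chordc1*, *Hspb1*, *Hspd1*, *Hspe1* and *Hsf1*. They were found by symbol among the 35739 genes of the abundance table, and all 10 were among the 9581 genes that were tested because their TPM (a transcript abundance corrected for length and scaled to the library total) averaged at least 1. The genes were chosen by their function with the TPM values of these same 4 libraries and the difference between the genotypes already known. Their difference between genotypes is therefore given as a description, and it supports nothing beyond the values themselves.

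RNA-seq was carried out on the liver, with 2 libraries for WT (numbered 2 and 3) and 2 for *Usp21* KO (numbered 1 and 3). The samples are labelled as separate mice, and the study used littermates aged 10 to 11 weeks on a cycle of 12 h light and 12 h dark. *Usp21* encodes a deubiquitinase. In the KO mice, exons 3 and 4 were excised by Cre between loxP sites in an allele made in ES cells of another strain than B6, and the loss is constitutive, so that every cell type of the liver carries it. The KO alleles came from a mixed background of B6 and that strain and the WT alleles from B6 mice, and the Cre driver, the time of tissue collection and any batch were not given in the sources used here.

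HSP90 is an ATP-dependent chaperone that brings kinases, steroid receptors and other clients to their active fold. Its co-chaperones set its cycle: *Stip1* (Hop) hands clients over from HSP70, *Ahsa1* (Aha1) stimulates the ATPase, *Fkbp4* is an immunophilin that joins steroid receptor complexes, and *Chordc1* (morgana) binds HSP90 through its CHORD and CS domains. *Hspd1* (HSP60) and *Hspe1* (HSP10) form the chaperonin that folds proteins in the mitochondrial matrix, and *Hspb1* (mouse HSP25) is a small heat shock protein that holds unfolding proteins without ATP. *Hsf1* encodes the transcription factor of the heat shock response. It is held inactive in unstressed cells, and under proteotoxic stress it forms trimers that bind heat shock elements, arrays of GAA and TTC units that alternate every 5 bases.

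RefSeq promoter windows of GRCm38.p6, from 250 bases before to 50 bases after a transcription start, were matched to 7 of the 10 genes by symbol. These windows were searched on both strands for units GAA and TTC that alternate every 5 bases. The smallest such array, GAANNTTC or TTCNNGAA, is its own reverse complement, so a match on one strand is also a match on the other, and longer arrays contain it. The windows of the 4 genes below are shown because they hold such arrays, with capitals for each whole array of at least 2 units. They cover chr9:18292017-18292316 on the forward strand (*Chordc1*), chr1:55087898-55088197 on the forward strand (*Hspe1*), chr5:135887669-135887968 on the forward strand (*Hspb1*) and chr6:128438607-128438906 on the reverse strand (*Fkbp4*).
*Chordc1*: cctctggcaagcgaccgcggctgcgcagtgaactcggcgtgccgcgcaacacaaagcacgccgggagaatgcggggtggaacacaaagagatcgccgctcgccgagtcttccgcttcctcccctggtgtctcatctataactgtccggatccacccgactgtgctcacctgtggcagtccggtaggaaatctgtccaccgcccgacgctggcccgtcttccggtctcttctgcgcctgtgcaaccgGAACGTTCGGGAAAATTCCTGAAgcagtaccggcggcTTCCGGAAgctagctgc
*Hspe1*: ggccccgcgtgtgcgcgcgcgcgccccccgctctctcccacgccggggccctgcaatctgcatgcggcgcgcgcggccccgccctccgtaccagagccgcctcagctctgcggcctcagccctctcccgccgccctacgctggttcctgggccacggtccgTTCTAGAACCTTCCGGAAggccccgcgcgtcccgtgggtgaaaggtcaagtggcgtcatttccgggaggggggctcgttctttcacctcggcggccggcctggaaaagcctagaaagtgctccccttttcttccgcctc
*Hspb1*: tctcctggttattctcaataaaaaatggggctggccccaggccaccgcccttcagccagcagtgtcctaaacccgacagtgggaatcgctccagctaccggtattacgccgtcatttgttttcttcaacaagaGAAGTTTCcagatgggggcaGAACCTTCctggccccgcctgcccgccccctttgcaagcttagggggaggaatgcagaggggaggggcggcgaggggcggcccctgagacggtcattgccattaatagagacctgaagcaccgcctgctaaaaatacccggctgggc
*Fkbp4*: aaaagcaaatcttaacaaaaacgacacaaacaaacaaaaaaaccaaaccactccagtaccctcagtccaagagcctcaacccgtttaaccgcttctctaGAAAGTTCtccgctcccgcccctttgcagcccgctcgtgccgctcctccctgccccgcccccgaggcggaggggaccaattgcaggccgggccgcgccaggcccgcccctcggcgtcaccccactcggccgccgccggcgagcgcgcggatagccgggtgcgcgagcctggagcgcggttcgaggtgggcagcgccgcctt

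*Chordc1* had an array of 5 units from 4 bases before to 19 bases after its start (−4 to 19, with no position 0) and a pair of units further in, from 34 to 41. It was the only gene of the 27025 with a window that held 5 units. *Hspe1* had 4 units from −89 to −72. The *Hspe1* and *Hspd1* genes lie head to head, and the same bases, chr1:55088059-55088076, fall from −144 to −127 of the inner of 2 *Hspd1* starts, where they read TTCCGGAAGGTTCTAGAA. The other *Hspd1* window held no array. *Hspb1* had a pair of units from −117 to −110 and another from −97 to −90, and *Fkbp4* had a pair from −151 to −144. No pair was in the windows of *Ahsa1* and *Stip1*, which says only that these letters are not in those 300 bases.

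At least 2 units were found for 5 of the 7 genes, compared with 17.0% of all genes with a window, and at least 4 units for 3 of the 7, compared with 0.0296% of all genes. A pair of units is thus common, whereas 4 or more units were found in only 8 genes of the annotation. A match is a description of letters, and no binding of HSF1 was measured here.

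**Figure D1:**
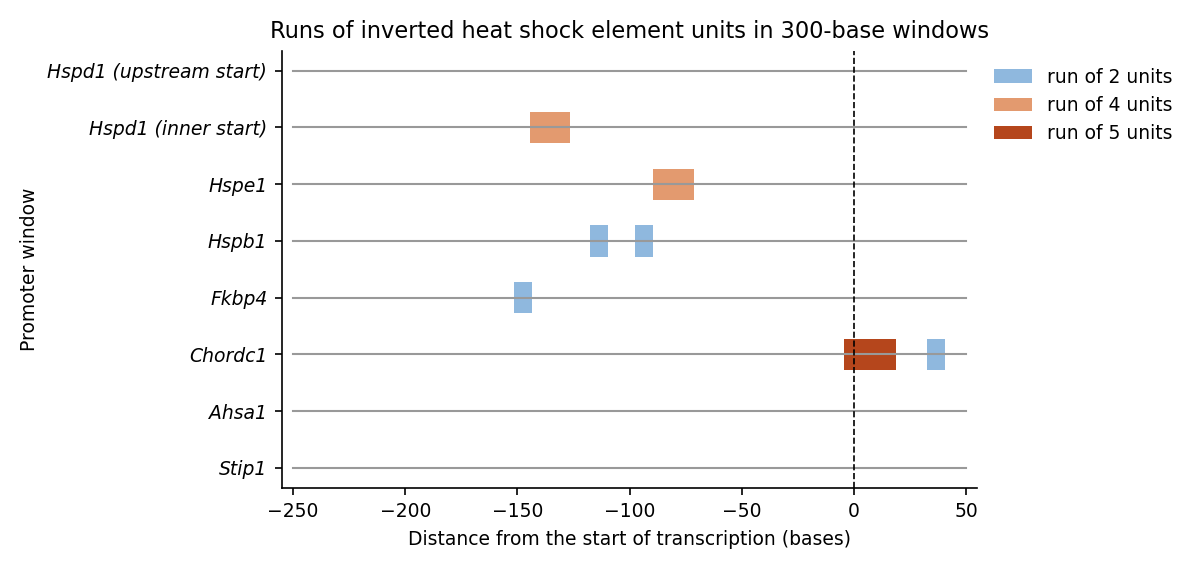
Positions of GAA and TTC units that alternate every 5 bases in the RefSeq promoter windows of 7 genes, with distance from the transcription start in bases on the x axis and 1 line per window. Boxes mark arrays of at least 2 units, and the arrays of 5 units (*Chordc1*) and 4 units (*Hspe1* and the inner start of *Hspd1*) are the longest.

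In the GENCODE M21 annotation of GRCm38, the HSP90 genes lie on the reverse strand, *Hsp90aa1* (ENSMUSG00000021270) at chr12:110690605-110702728 and *Hsp90ab1* (ENSMUSG00000023944) at chr17:45567775-45573271. The co-chaperone genes are at chr19:7020702-7039967 (*Stip1*, reverse strand), chr12:87266479-87273998 (*Ahsa1*, forward), chr6:128429735-128438677 (*Fkbp4*, reverse) and chr9:18292125-18317442 (*Chordc1*, forward), and the RefSeq start used for the *Chordc1* window lies downstream of the start of that gene in GENCODE. *Hspb1* is at chr5:135887919-135889563 and *Hsf1* at chr15:76477422-76501913, both on the forward strand. *Hspd1* (chr1:55077835-55088243) and *Hspe1* (chr1:55088132-55091307) are on opposite strands and overlap by 112 bp at their starts. Genes that shared at least 50% of their 31-base stretches with *Hsp90aa1*, *Ahsa1*, *Hspb1*, *Hspd1* or *Hspe1* had, where they were measured, means below 1 TPM, and adding them to the gene changed no direction. Stretches that also occur in another gene with a mean above 0 TPM, however low, made up 37.8% of *Hsp90aa1*, 46.5% of *Hspd1* and 23.5% of *Hspe1*, so the split of reads by salmon is less certain for these genes.

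*Usp21* was at 4.07 and 6.29 TPM (WT) against 1.64 and 2.93 TPM (KO), without overlap, as a value over the whole gene and not over the deleted exons alone. The reference gene *Gapdh* was at 1115 and 1059 TPM (WT) against 1044 and 899 TPM (KO). Y-linked genes were above 0 in all 4 libraries. Reads recovered from the second deposited table numbered from 102898 to 148164 per library, which is shallow, and 7 of the 10 genes were at 0 there in every library. *Hsp90ab1* had 2 and 0 reads there in the WT libraries and 5 and 3 in the KO libraries, *Stip1* had 1 read in each of 2 libraries, and *Hspe1* had 1 read in 1 library, where 3 reads is the most that a count of 0 allows. Of 682 genes at 100 TPM or more in every library, 428 were at 0 in that table, and the reason was not tested. A difference in the 10 genes was thus not detectable in the counts, and the values that follow are TPM, which carries no depth.

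The levels of the 10 genes in liver spanned from *Hspe1* at 301 ± 52.8 TPM and *Hsp90ab1* at 299.7 ± 85.0 TPM (mean ± SD, n = 4 libraries) to *Chordc1* at 11.5 ± 7.28 TPM and *Hsf1* at 4.63 ± 1.80 TPM. Between them stood *Hspd1* (162 ± 8.04 TPM), *Hsp90aa1* (109 ± 52.2 TPM), *Fkbp4* (92.0 ± 14.6 TPM), *Ahsa1* (68.9 ± 13.6 TPM), *Stip1* (30.2 ± 9.18 TPM) and *Hspb1* (29.6 ± 17.1 TPM). This order is by the mean over both genotypes. *Hspe1* was above *Hsp90ab1* in WT (273 against 229 TPM) and below it in KO (328 against 371 TPM), and *Fkbp4* and *Hsp90aa1* (83.5 and 72.8 TPM in WT, 100.5 and 145 TPM in KO) and *Stip1* and *Hspb1* (23.4 and 17.6 TPM in WT, 37.0 and 41.6 TPM in KO) also changed places. Only *Hsp90ab1* over *Hspd1* and *Ahsa1* over *Stip1* were neighbours in this order whose ranges over the 4 libraries did not overlap. The steadiest gene was *Hspd1*, whose highest library was 1.11 times its lowest, and the most variable was *Chordc1*, at 4.47 times.

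**Figure D2:**
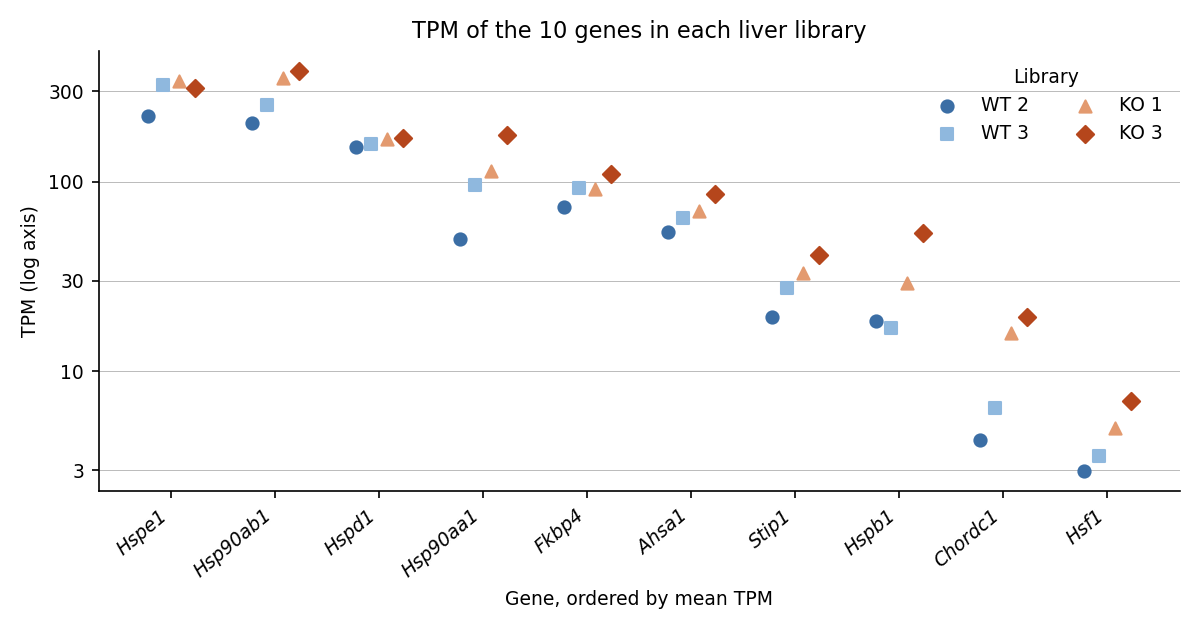
TPM of the 10 genes in each liver library, on a logarithmic y axis, with WT replicates 2 and 3 and *Usp21* KO replicates 1 and 3 as separate points. The KO libraries lie above both WT libraries for 8 genes, and *Fkbp4* and *Hspe1* overlap.

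The comparison of *Usp21* KO with WT liver asks which transcripts differ when the deubiquitinase is lost. By mean log2(TPM + 1), all 10 genes were higher in KO, compared with 66.7% of all genes, 8 of them with each KO library above each WT library, an order found in 34.4% of all 9581 genes. The reverse order was found in 0 of the 10 genes and in 10.9% of all genes. A difference of at least 2-fold toward KO was found for *Chordc1*, *Hspb1* and *Hsp90aa1*, 3 of the 10 genes, compared with 2.59% of all genes, and a 2-fold difference toward WT for 0 of the 10 genes, compared with 1.1%. The median log2 fold change was 0.68 over the 10 genes and 0.15 over all tested genes. Because the genes were chosen with this contrast known, nothing is read from these counts. Without KO replicate 3, *Chordc1* alone was at least 2-fold higher, 1 of the 10 genes, compared with 546 of all 9581 genes. In bulk liver, a change in the number of cells of a type and a change in RNA per cell cannot be told apart.

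In limma with Benjamini-Hochberg adjustment over the 9581 genes, an adjusted p under 0.05 was reached by 0 of the 10 genes (lowest 0.29, *Chordc1*), compared with 0.0835% of all genes, and 6 had an unadjusted p under 0.05 toward KO, compared with 8.45% of all genes (2.04% toward WT). On the reads recovered from the second table, *Hsp90ab1* alone had more than 3 reads in a library, and its adjusted p was 0.82 in edgeR and 0.998 in DESeq2. With 2 libraries per genotype, an exact two-sided permutation test of a single gene cannot go below p = 0.333. In simulated data, limma recovered 0% of 200 genes set at a log2 fold change of 1. Its adjusted p therefore cannot decide whether genes with a difference of that size differ.

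The shift of all genes toward KO touches each of these values. With each library scaled to the same upper quartile, the median of all tested genes fell to 0.07, all 10 genes were still higher in KO, and 7 were without overlap. Of all genes, 2531 then had KO above WT and 1545 had KO below WT, compared with 3292 and 1046 without that scaling.

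The HSP90 genes themselves were both higher in KO. *Hsp90aa1*, the stress-inducible isoform, was at 49.6 and 96.1 TPM (WT) against 113 and 176 TPM (KO), which is 1.02 ± 0.37 (SE) on the log2 scale. The groups did not overlap, but the WT libraries differed from each other by 0.94 on the same scale, nearly as much as the genotypes. Without WT replicate 2 the log2 fold change was 0.55, and without WT replicate 3 it was 1.49. *Hsp90ab1*, the constitutive isoform, was at 204.8 and 253 TPM (WT) against 355 and 386 TPM (KO), with a log2 fold change of 0.70 ± 0.18. Its KO libraries were close to each other and above both WT libraries, and its log2 fold change ranged from 0.55 to 0.85 when a library was left out.

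Summed over both isoforms, HSP90 transcripts were at 254 and 349 TPM (WT) against 469 and 562 TPM (KO), a ratio of means of 1.71. *Hsp90aa1* made up 19.5% and 27.5% of that sum in WT and 24.2% and 31.3% in KO. These shares overlap, and in each genotype replicate 3 had the larger share.

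Among the co-chaperones, *Chordc1* had the largest difference of the 10 genes, at 4.34 and 6.38 TPM (WT) against 15.9 and 19.4 TPM (KO). Its log2 fold change was 1.56 ± 0.25, higher than in 99.4% of the tested genes, and it stayed between 1.33 and 1.80 when a library was left out. The gap between the genotypes was larger than the 0.47 between the WT libraries and the 0.27 between the KO libraries. *Stip1* was at 19.4 and 27.4 TPM (WT) against 32.8 and 41.2 TPM (KO), with a log2 fold change of 0.65 ± 0.24. *Ahsa1* was at 54.1 and 64.3 TPM (WT) against 70.4 and 86.7 TPM (KO), with a log2 fold change of 0.40 ± 0.19. For both, KO libraries lay above WT libraries, with a smaller gap than for *Chordc1*. *Fkbp4* was at 73.7 and 93.3 TPM (WT) against 91.7 and 109 TPM (KO), with a log2 fold change of 0.27 ± 0.20, and it overlapped, with KO replicate 1 just below WT replicate 3.

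Set against the HSP90 sum of the same library, the co-chaperones differed in direction, in a comparison chosen after the values were seen. *Chordc1* amounted to 1.71% and 1.83% of the HSP90 sum in WT and to 3.39% and 3.46% in KO. *Fkbp4* amounted to 29.0% and 26.7% in WT and to 19.6% and 19.5% in KO, and *Ahsa1* to 21.3% and 18.4% in WT and 15% and 15.4% in KO. *Chordc1* was thus higher per HSP90 transcript in KO, and *Fkbp4* and *Ahsa1* were lower, each without overlap. For *Stip1* the values were close, at 7.63% and 7.85% in WT and 7.0% and 7.34% in KO, and also without overlap.

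**Figure D3:**
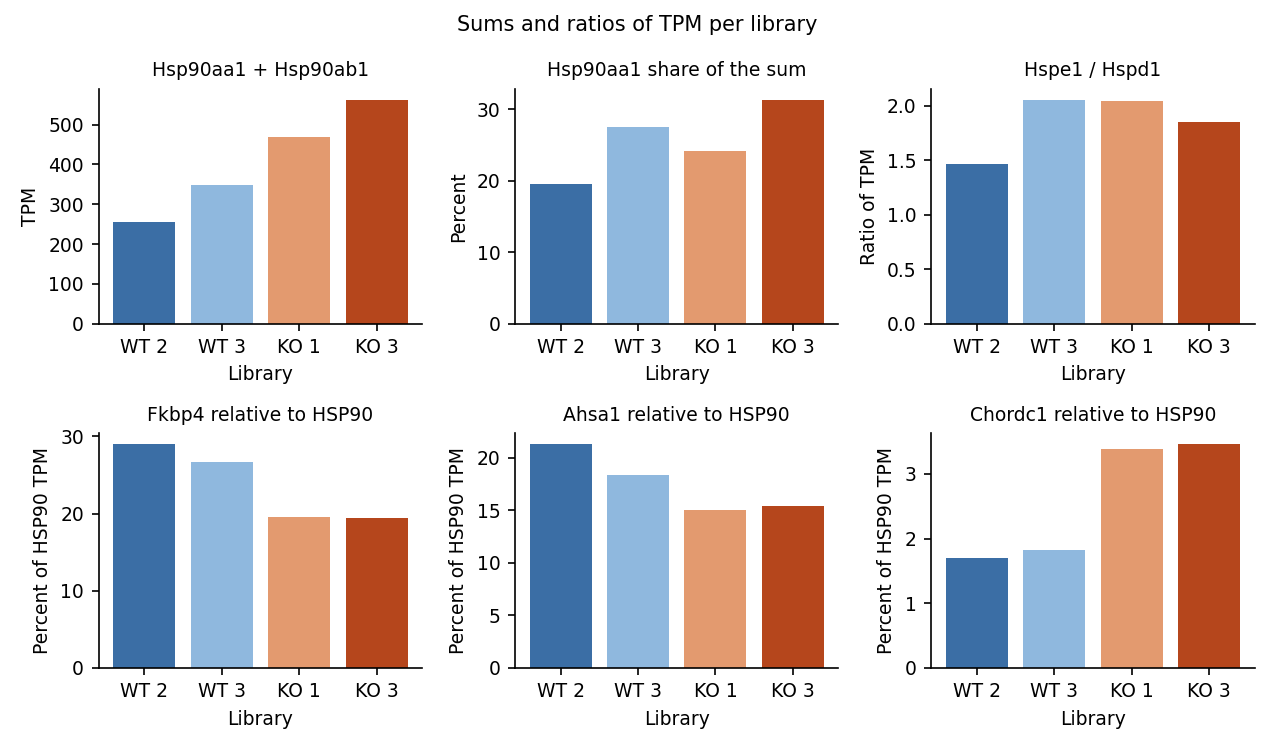
Ratios between the genes within each library, with 1 bar per library (x axis, WT replicates 2 and 3 and *Usp21* KO replicates 1 and 3) and y axes in TPM, percent or as a ratio of TPM, each from 0. The *Hsp90aa1* share and *Hspe1* over *Hspd1* overlap between the genotypes, and *Chordc1* per HSP90 is higher in both KO libraries.

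The chaperonin genes differed little, and *Hspd1* had the smallest log2 fold change of the 10 genes. It was at 153 and 157 TPM (WT) against 168 and 170 TPM (KO), and its log2 fold change of 0.12 ± 0.15 was below the median of all genes. *Hspe1* was at 223.6 and 323 TPM (WT) against 343 and 314 TPM (KO), with a log2 fold change of 0.29 ± 0.23. WT replicate 2 was the low library of *Hspe1*, the other WT library lay between the KO libraries, and without WT replicate 2 the log2 fold change was 0.02. The ratio of *Hspe1* to *Hspd1* was 1.46 and 2.05 in WT and 2.04 and 1.85 in KO and overlapped.

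*Hspb1* was at 18.4 and 16.9 TPM (WT) against 29.3 and 53.9 TPM (KO), with a log2 fold change of 1.13 ± 0.31. The WT libraries were close to each other and the KO libraries were 0.86 apart on the log2 scale, so that the log2 fold change was 0.70 without KO replicate 3 and 1.56 without KO replicate 1. This gene was also on a shortlist that the study drew from the same libraries, which is not independent evidence. *Hsf1* was at 2.96 and 3.57 TPM (WT) against 5.01 and 7.0 TPM (KO), with a log2 fold change of 0.71 ± 0.26, low in both genotypes and without overlap. The mRNA level of *Hsf1* does not measure the activity of the protein, which is set largely after translation.

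**Figure D4:**
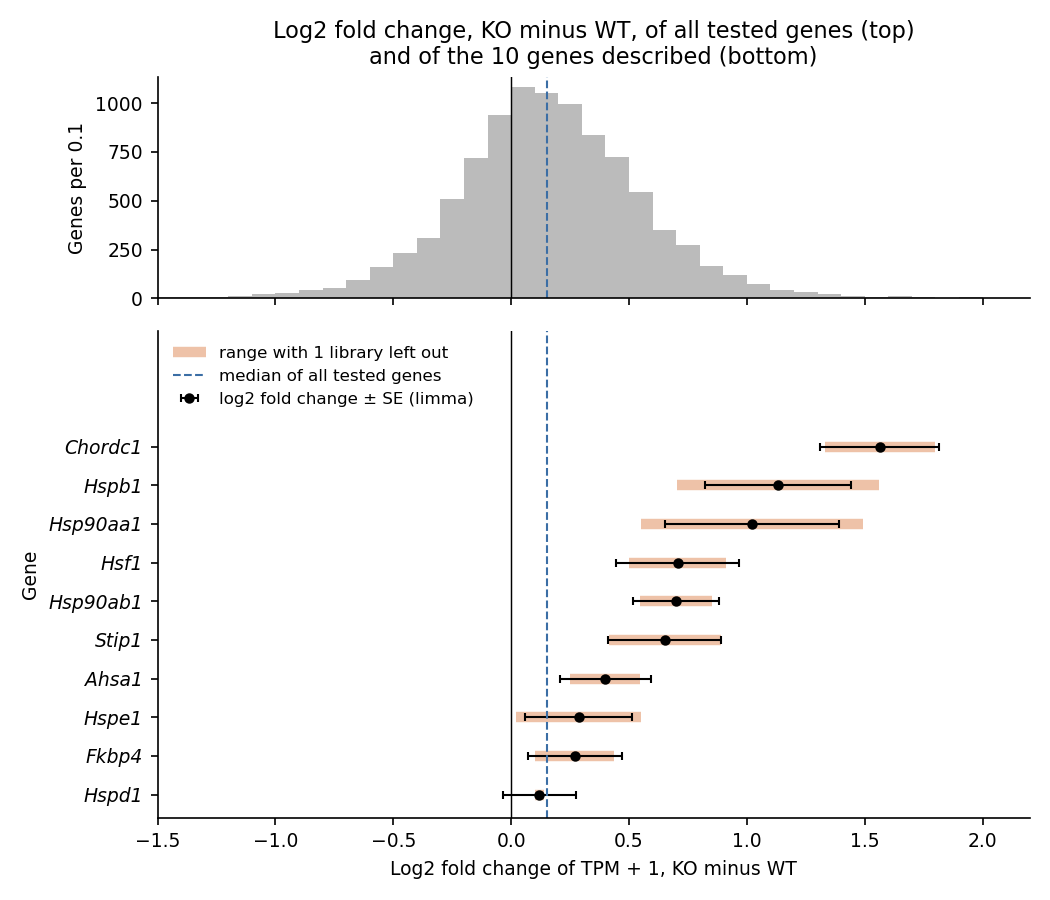
Log2 fold change of *Usp21* KO against WT on the log2(TPM + 1) scale, for all tested genes as a histogram over the range shown (top) and for the 10 genes with their SE and a band for the range when a library is left out (bottom), with a dashed line at the median of all tested genes (0.15). *Chordc1* at 1.56 lies farthest to the right and *Hspd1* at 0.12 lies left of the line.

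The 10 genes also varied within each genotype, and mostly in the same direction. WT replicate 3 was above WT replicate 2 in 9 of the 10 genes (49.9% of all genes), with *Hspb1* as the exception, and KO replicate 3 was above KO replicate 1 in 9 (35.2% of all genes), with *Hspe1* as the exception. WT replicate 2 was the lowest library for 9 genes (32.6% of all genes) and KO replicate 3 the highest for 9 (21.6% of all genes). The full order WT replicate 2, WT replicate 3, KO replicate 1, KO replicate 3 was found for 7 genes, namely *Hsp90aa1*, *Hsp90ab1*, *Stip1*, *Ahsa1*, *Chordc1*, *Hspd1* and *Hsf1*, compared with 5.88% of all genes. For *Fkbp4* and *Hspe1*, the log2 fold change between genotypes (0.27 and 0.29) was smaller than the difference between the WT libraries (0.34 and 0.53).

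The genes outside the set with the most similar profile over the 4 libraries, by root mean square distance of centred log2(TPM + 1) from the mean profile of the 10 genes among 4016 genes averaging 10 TPM or more, were *Dnaja1* (0.034), *Pi4k2b* (0.035), *Bag3* (0.048), *Shb* (0.055) and *H1f2* (0.055). *Dnaja1*, an HSP40 co-chaperone of HSP70, was at 90.3 and 122 TPM (WT) against 150.1 and 185 TPM (KO). *Bag3*, a nucleotide exchange factor of HSP70, was at 7.24 and 10.1 TPM (WT) against 12 and 15.6 TPM (KO). *Pi4k2b*, *Shb* and *H1f2* are in none of the gene lists used here. *Pi4k2b* was at 6.54 and 8.69 TPM (WT) against 11.8 and 13.8 TPM (KO). For *Shb* the values were 9.47 and 12.7 TPM (WT) against 17.6 and 22.0 TPM (KO), and for *H1f2* 13.6 and 19.4 TPM (WT) against 24.6 and 31.1 TPM (KO). Of the 10 genes, *Stip1* (0.050) and *Hsf1* (0.062) were nearest to their own mean profile and *Chordc1* (0.44) was farthest.

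The families around these genes are described by counts and medians, beside a median of 0.15 over all tested genes, of which 66.7% were higher in KO and 34.4% were higher without overlap. Of 27 other HSP90 paralogs and co-chaperones, 21 were higher in KO, 14 without overlap, and 6 were lower, 2 without overlap, with a median log2 fold change of 0.27. *Ahsa2*, a homologue of *Ahsa1*, was the highest at 9.0 and 9.09 TPM (WT) against 28.7 and 23.4 TPM (KO), with a log2 fold change of 1.42 ± 0.20. *Ppid*, an HSP90-binding cyclophilin, followed at 0.84 ± 0.22, and *Fkbp8* was lowest at −0.36 ± 0.17. Of 16 other mitochondrial chaperones and proteases, 14 were higher, 7 without overlap, and *Grpel1* (−0.16 ± 0.18) and *Phb2* (−0.12 ± 0.16) were lower, both without overlap, with a median of 0.16. *Clpx*, the unfoldase of the ClpXP protease, had the largest difference (32.0 and 18.9 TPM in WT, 76.2 and 65.0 TPM in KO, log2 fold change 1.48 ± 0.28). Of 17 genes of the cytosolic chaperonin and prefoldin, 14 were higher, 9 without overlap, and 3 were lower, 1 of them without overlap (*Cct7*, −0.10 ± 0.16), with a median of 0.18, close to that of all genes. *Cct3*, a subunit of the chaperonin ring, was the highest at 0.62 ± 0.20. With upper quartile scaling, the higher genes numbered 19, 9 and 10 in these 3 families, of which 11, 4 and 5 were without overlap, and the lower genes without overlap numbered 4, 3 and 2. With that scaling, 57.4% of all genes were higher in KO and 26.5% were higher without overlap.

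Among 14 other heat-inducible targets of HSF1, all 14 were higher in KO (13 with upper quartile scaling), and 11 of them without overlap. At least 2-fold higher were 5, compared with 2.59% of all genes, and the median was 0.62. *Hspa1b*, an inducible HSP70, was at 0.656 and 3.97 TPM (WT) against 9.11 and 13.5 TPM (KO), with a log2 fold change of 2.08 ± 0.54. Like *Hspb1*, it was on the shortlist that the study drew from the same libraries. *Hsph1*, an HSP110, was at 7.28 and 13.9 TPM (WT) against 30.2 and 40.6 TPM (KO) (1.70 ± 0.33). At the other end, *Dedd2* (0.04 ± 0.22) and *Hspa4* (0.17 ± 0.20) overlapped. The order of the libraries seen for *Hsp90aa1* and *Chordc1* was also found for 7 of the 14, compared with 5.88% of all genes. In the other small heat shock proteins, 4 of 8 were at 0 in every library and 3 were tested, of which *Hspb8* (0.42 ± 0.21) and *Cryab* (0.56 ± 0.26) had both KO libraries above WT and *Hspb6* overlapped.

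Of 7 tested members of the HSF family and its regulators, 5 were higher, led by *Sirt1* (0.66 ± 0.26), a deacetylase that acts on HSF1, and 2 were lower, *Hsf4* (−0.37 ± 0.25) and *Hdac6* (−0.01 ± 0.25). Of 11 tested HSP90 clients, 8 were higher with a median of 0.18, with *Insr* (0.75 ± 0.23) and *Egfr* (0.51 ± 0.18) highest and *Nr1i3* (−0.40 ± 0.20) and *Akt1* (−0.16 ± 0.20) lowest. By limma, 0 genes of these 7 families had an adjusted p under 0.05, while an unadjusted p under 0.05 toward KO was found for 4 HSP90 paralogs and co-chaperones, 1 gene of the cytosolic chaperonin and prefoldin, 1 mitochondrial gene, 0 small heat shock protein genes, 1 gene of the HSF family and its regulators, 6 heat-inducible targets and 2 clients, and toward WT for 0 genes. Over all tested genes the shares were 8.45% toward KO and 2.04% toward WT, so that the counts for the cytosolic chaperonin and prefoldin and for the mitochondrial genes were near the background. The other families held only 3 to 27 tested genes. Nothing is read from their counts, because the lists were chosen with earlier results of these data known.

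**Figure D5:**
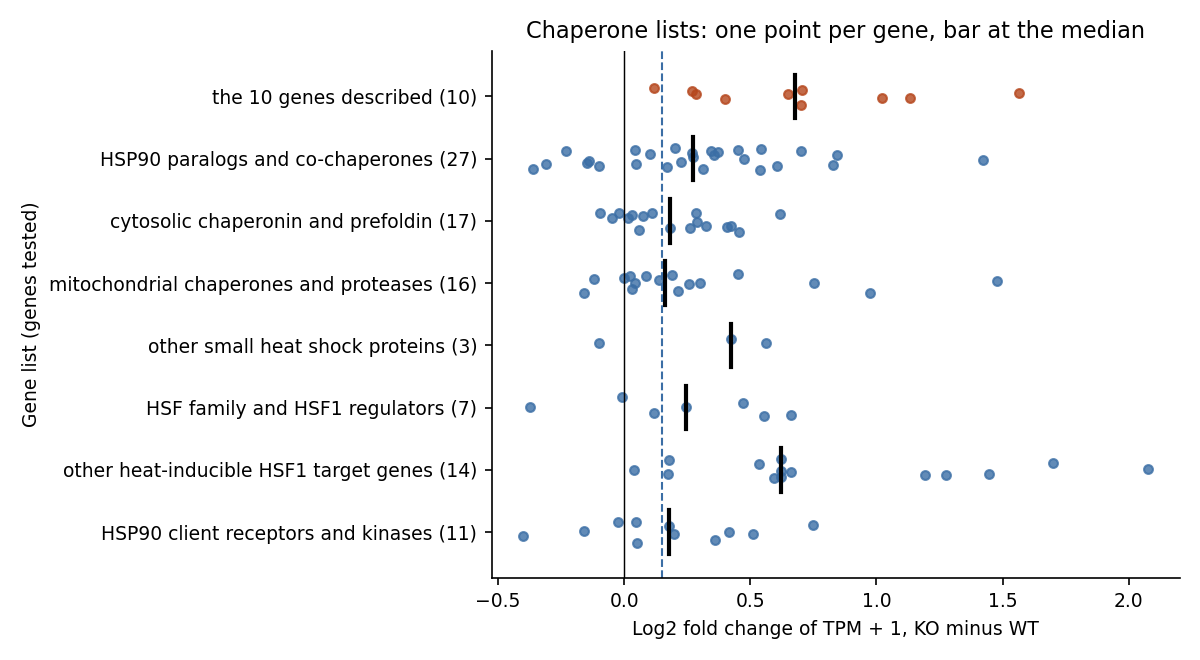
Log2 fold change of *Usp21* KO against WT on the log2(TPM + 1) scale for the tested genes of each family, 1 point per gene, with a line at each family's median and the median of all tested genes as a dashed line. The medians of the 10 genes described (0.68) and of the other heat-inducible targets (0.62) lie to the right of the other chaperone families.

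Other measures moved with the genotype or with single libraries, and their part in the values above was not tested. *Rbm3*, an RNA-binding protein whose mRNA rises when temperature falls, was at 52.2 and 47.8 TPM (WT) against 37.5 and 18.8 TPM (KO), with a log2 fold change of −0.89 ± 0.33, lowest in KO replicate 3, and *Cirbp*, the related gene, overlapped (−0.02 ± 0.46). Of 12 tested clock genes, 5 were higher and 7 were lower. *Dbp*, a clock output gene, was at 56.8 and 41.3 TPM (WT) against 4.73 and 4.97 TPM (KO), with a log2 fold change of −3.08 ± 0.23 and a limma adjusted p of 0.0193, a threshold that 0 genes passed when any of the 4 libraries was left out. In turn, *Arntl*, a core clock activator, was at 0.241 and 0.243 TPM (WT) against 5.89 and 4.05 TPM (KO) (2.25 ± 0.28). Time of collection and genotype cannot be told apart with these libraries.

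The 8 hepatocyte markers were expressed in every library and summed to 53981 to 69152 TPM in WT and 46600 to 55499 TPM in KO. Markers of other cells were low beside these and some differed by genotype: stellate cell and fibroblast markers summed to 45.0 to 53.4 TPM in WT and 62.6 to 83.5 TPM in KO (6 of 6 higher), cholangiocyte markers to 14.6 to 15.9 TPM in WT and 24.5 to 37.9 TPM in KO (4 of 5 higher), and smooth muscle markers to 2.73 to 3.74 TPM in WT and 4.59 to 5.96 TPM in KO (4 of 4 higher). Of their defining markers, *Acta2* was at 0 in WT replicate 3 and *Krt7* at 0 in KO replicate 3. *Spp1* (13.2 and 12.7 TPM in WT, 33.4 and 20.7 TPM in KO) made up most of the cholangiocyte sum. *Dcn* (42.6 and 34.1 TPM in WT, 62.8 and 48.4 TPM in KO) made up most of the stellate sum. Without overlap were 2 of 4 tested stellate, 1 of 2 tested cholangiocyte and 1 of 2 tested smooth muscle markers. Of all tested genes, 66.7% were higher in KO and 34.4% were higher without overlap. Red blood cell markers summed to 832 to 865 TPM in WT and 669 to 812 TPM in KO (4 of 4 lower). The summed levels of the other lists overlapped between the genotypes. Sinusoidal endothelial markers summed to 31.6 to 40.7 TPM in WT and 33.6 to 49.6 TPM in KO (5 of 5 higher), with *Lyve1* alone without overlap (log2 fold change 0.98 ± 0.38). Kupffer cell markers summed to 88.5 and 100.03 TPM in WT, 51.6 TPM in KO replicate 1 and 135 TPM in KO replicate 3 (2 of 6 higher). Lymphocyte markers summed to 1.70 to 2.67 TPM over the 4 libraries (2 of 4 higher), with *Ptprc* above and *Cd3e* below WT in both KO libraries. WT replicate 3 stood apart with neutrophil markers at 41.8 TPM (1.85 to 4.16 TPM in the other libraries) and immediate early genes at 101 TPM (24.2 to 51.4 TPM in the others), and without it the median log2 fold change of the 10 genes was 0.83.

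Among the tested genes with at least 4 units in their promoter window, the log2 fold change was 1.56 for *Chordc1*, 0.46 for *Fam149a*, 0.29 for *Hspe1*, 0.27 for *Kctd18*, 0.12 for *Hspd1* and 0.02 for *Arpc2*. *Chordc1*, which had the largest difference of the set, and *Hspd1*, which had the smallest, both had such an array. *Hspe1* and *Hspd1* share the same bases. For at least 2 units (1067 tested genes), the median was 0.149, and 33.2% had each KO library above each WT library. For at least 3 units (46 tested genes) these values were 0.279 and 54.3%. For at least 4 units (6 tested genes, 3 of them of the set) they were 0.276 and 66.7%. Each of these groups holds the next, and all hold genes of the set, which were chosen with this contrast known. Nothing is therefore read from these shares. The median of all tested genes with a window was 0.154, and 34.4% of all tested genes had that order. Whether these arrays have a part in the differences was not tested.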

How the data were processed

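RNA was extracted from liver with ISOGEN II and sequenced on an Illumina MiSeq, and the labels gave the genotype and replicate number of each library (2 per genotype). The authors estimated abundance with salmon against mm10 and deposited it as TPM per Ensembl gene. The authors also counted aligned reads with HTSeq and deposited them as a TMM-normalized CPM signal made with edgeR, of which the low values are whole multiples of 1 read (6.68 to 9.22 CPM). All recovered values (100%) were whole within a tolerance of 0.02 reads. Versions, annotation and strand setting are not given in the sources used here. Because 428 of 682 genes at 100 TPM or more in every library were at 0 in the CPM table, TPM was the main measure. The deposited log2 tables repeat these values and were not used, and unused columns of per-sample values numbered 0.

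Genes averaging 1 TPM or more were tested on log2(TPM + 1) with limma 3.58.1 (lmFit and eBayes with trend, R 4.3.3, prior degrees of freedom 3.62), two-sided, with Benjamini-Hochberg adjustment. A fold change on this scale understates that of low genes. The samples are labelled as separate mice and nothing more is said of how they were taken, so p-values measure only the spread between these libraries. edgeR 4.0.16 called 12 genes and DESeq2 1.42.0 called 1 of 5146 on the recovered reads. The limit of 3 reads for a count of 0 covers counting error only, whereas the SE of limma comes from the spread between libraries. Scripts were tested on simulated data.

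The 10 genes, the gene lists and the alternatives were chosen with earlier results of these data known. The genes named are those 10, *Usp21*, *Gapdh*, the 2 highest and 2 lowest log2 fold changes of each list (all tested genes where a list had 4 or fewer) and the 5 genes nearest in profile. Some of these are given only in the counts of their list. Ratios between the genes and the promoter search were chosen after the values were seen, as were *Fam149a*, *Kctd18* and *Arpc2*, which are all the other tested genes with at least 4 units. Alternatives were pseudocounts of 0.1 and 5, no filter, a mean of at least 5 TPM, upper quartile scaling, variances without moderation, near-identical copies added (genes sharing at least 50% of 31-base stretches), the CPM values, edgeR, DESeq2 and each library left out.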

Additional observations from a re-analysis of the deposited data

How the results depend on the processing

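All 10 genes kept their direction in each of the 112 single-gene values under the alternatives, and 0 had an adjusted p under 0.05 in any of them (lowest 0.286). The number of genes at least 2-fold higher moved from 3 to 1 with a pseudocount of 5, and over all 9581 tested genes from 248 to 70. When a library was left out, the number among the 10 genes ranged from 1 (without KO replicate 3) to 3. Over all tested genes it then ranged from 275 to 546, with 546 without KO replicate 3. The number without overlap ranged from 7 to 10 over the alternatives and from 8 to 10 when a library was left out, where a lone library makes overlap less likely. Over all 9581 genes, 4244 to 5517 had KO above WT without overlap when a library was left out, compared with 3292 with all libraries. The lowest number, 7, came with upper quartile scaling (2531 of 9567 genes) and with a mean of at least 5 TPM (1911 of 5822 genes), which leaves out *Hsf1*. The median log2 fold change of the 10 genes ranged from 0.48 to 0.83 when a library was left out. In these fits the lone library is assumed to vary like the other genotype. The CPM values, edgeR and DESeq2 gave no value over the 10 genes, because 1 gene, *Hsp90ab1*, had more than 3 recovered reads in a library, and whether depth or the counting sets this was not tested. No paired analysis was possible because the genotypes share fewer than 2 replicate numbers.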
